A study of Mesocricetus auratus with 14 samples.

Results

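The proteasome genes of the liver were examined in golden hamsters (Mesocricetus auratus) on a high-fat diet, in 7 samples labelled control and 7 labelled as given the compound DC371739, for which only this code name is used here. All 14 samples share the diet, so that no group on another diet was compared. The labels give no strain, age, dose, route or length of treatment, and do not say that each sample is a separate animal. The p-values therefore measure the spread between these samples. Members were the genes whose symbol begins with Psma, Psmb, Psmc, Psmd, Psme, Psmf or Psmg followed by a digit. There were 41 of them among 10023 genes with a symbol, and all 41 passed the filter on low counts. Of these, 39 code for subunits, assembly chaperones, activators or the inhibitor of the proteasome. The other two, Psmc3ip and Psme3ip1, are named after a partner of a subunit and are not subunits. Genes that the table used does not list under these symbols, among them Psma1, Psmb3, Psmb5, Psmb10, Psmd8, Psme2 and Psme3, were not analysed here.

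The proteasome is the large protease that degrades proteins tagged with ubiquitin. Its 20S core is a barrel of alpha and beta rings with the catalytic sites inside, and the 19S particle at its ends recognises, unfolds and feeds in the substrate. Interferons induce catalytic subunits of another kind, Psmb8 and Psmb9 among them, which take the place of the constitutive ones and give the immunoproteasome, whose products are well suited to presentation on MHC class I molecules. The liver degrades much protein, and hepatocytes hold abundant constitutive proteasome.

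The libraries fell into 2 classes. A deeper class, formed by 2 control libraries (replicates 6 and 7) and DC371739 replicate 7, had totals of 22152239 to 23948628 counts, with 12.6% to 14.4% of them on mitochondrial genes. The other 11 held 13672589 to 16710097 counts, with 7.23% to 9.33% mitochondrial. The comparison was therefore fitted in 3 ways: on all 14 libraries, on these with the class as a term in the model, and on the 11 shallower libraries alone (5 control, 6 DC371739). Levels are given as CPM, the count divided by the TMM-scaled library total and multiplied by 1000000, or, where genes are compared with each other, as the deposited FPKM, which divides by gene length. The hepatocyte markers, a list of 8 genes with a row, summed to 111000 to 148000 CPM in the control libraries and 112000 to 133000 CPM in the DC371739 libraries, and none of them was at 0. Alb alone had a mean of 106000 CPM in control and 99300 CPM with DC371739, and so made up most of each sum. Over all 14 libraries 4 of these 8 genes had a negative log2 fold change and 4 a positive one. In that fit 0 passed (edgeR) and 1 had an unadjusted p under 0.05, against 20.4% of all genes tested. With the class term 1 of the 8 rose, against 5.62% of all genes, and over the shallower libraries 2 rose. Over the shallower libraries 11% of all genes were higher.

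Transcripts per length were highest, by the median of each kind of gene, in the 20S core apart from its immune sites. These medians were 159 FPKM in the alpha ring, and 190 and 179 FPKM in non-catalytic and constitutive catalytic beta-ring genes. In the 19S particle they were 114 FPKM for ATPase and 76.7 FPKM for non-ATPase genes. The ranges of core and 19S genes overlapped, and FPKM does not measure protein. Mean FPKM over the 14 libraries ran from 89.4 (Psma5) to 226 (Psma7) in the 6 alpha-ring genes. In the beta ring, the non-catalytic Psmb4 had the highest FPKM of all 41 genes, at 350, ahead of Psmb1 at 190 and Psmb2 at 141. The constitutive catalytic genes Psmb6 and Psmb7, which code for the caspase-like and trypsin-like sites, stood at 185 and 173 FPKM. Those of the immune sites, Psmb8 and Psmb9, had FPKM values of 105 and 95.1.

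The 6 ATPase genes of the 19S base, whose products form the ring that unfolds the substrate, ranged from 55.6 FPKM (Psmc6) to 179 FPKM (Psmc3). The 10 non-ATPase genes ranged from 38 FPKM (Psmd13) to 123 FPKM (Psmd4, a ubiquitin receptor). The assembly chaperones among the 41 genes ranged from 21.3 FPKM (Psmd10) to 62.2 FPKM (Psmd9) for the 19S base, and from 10.1 FPKM (Psmg2) to 62 FPKM (Psmg1) for the 20S core, so that the highest of them lay above the subunit genes Psmd13, Psmd14, Psmc6 and Psmd1. Psme1, a subunit of the interferon-inducible activator PA28, had an FPKM of 168, Psme4, the activator PA200, 29.7, and Psmf1, the inhibitor PI31, 41.2. Psmc3ip was nearly silent, at 0.898 FPKM.

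**Figure D1:**
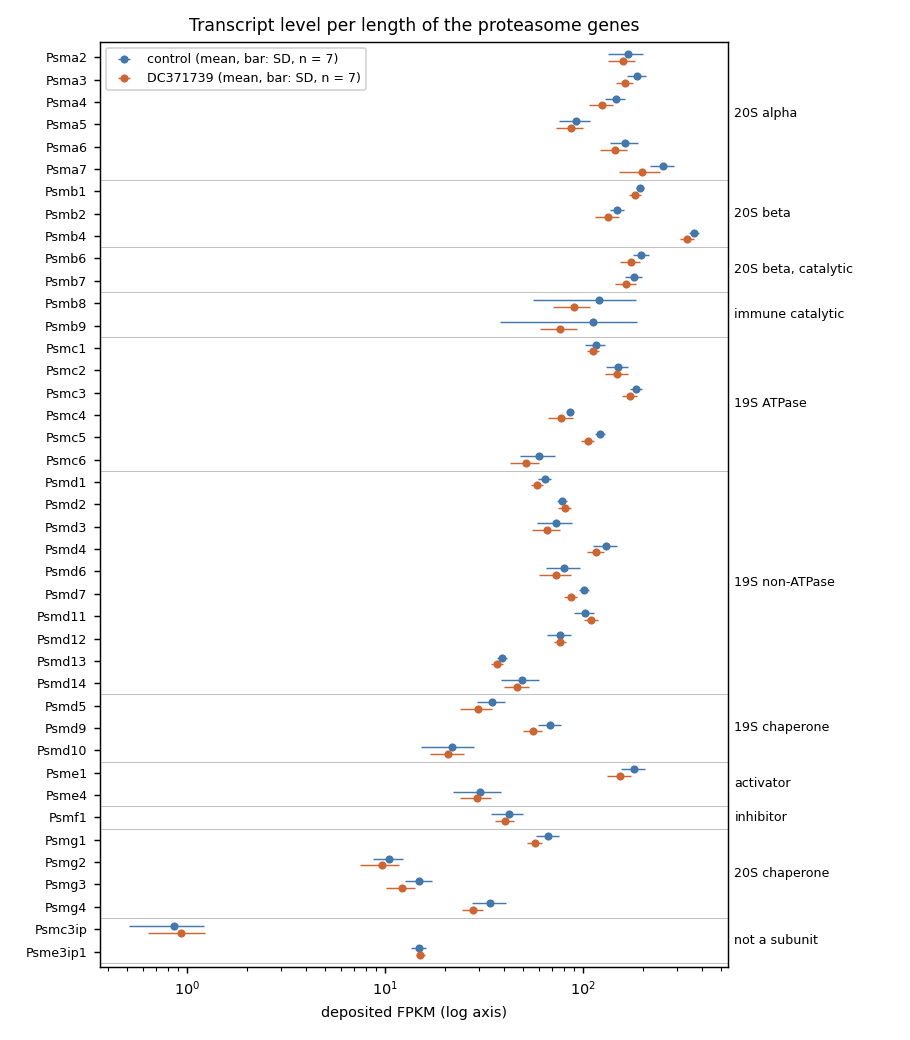
Deposited FPKM of the 41 genes (log axis), as the mean and SD of the 7 control and the 7 DC371739 libraries, grouped by role. Psmb4 is highest at 350 FPKM over all libraries and Psmc3ip lowest at 0.898, and the widest bars are those of Psmb8 and Psmb9 in control.

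The comparison of DC371739 with control asked whether the liver's proteasome transcripts differed after treatment. Over all 14 libraries none of the 41 genes passed an adjusted p of 0.05 in edgeR's quasi-likelihood test, in either direction. The background in that fit was 0.608% of 12166 genes lower and 1.24% higher. At an unadjusted p under 0.05 there were 11 of the 41 genes (26.8%), against 20.4% of all genes tested. This excess depended on the scaling. With upper-quartile scaling there were 5 (12.2%, against 19.7% of all genes), and with no scaling 7 (17.1%, against 19.1%). DESeq2 called 2 of the 41 (4.88%), Psmc5 (adjusted p = 0.0386) and Psmd7 (adjusted p = 0.0279), both lower. Its background was 2.74% of 12166 genes lower and 4.18% higher. With limma on log2 FPKM, 0 of the 41 were called. The smallest adjusted p with edgeR was 0.108, for Psmd7.

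The fitted differences were small and mostly negative. The log2 fold change, DC371739 over control, was negative for 36 of the 41 genes (87.8%), against 53.4% of all genes tested. Its median was -0.14 over the 41 and -0.02 over all genes. With the class term 31 of 41 were negative (75.6%, against 50.8% of all genes), and over the shallower libraries also 31, with a median of -0.14 and 0.01 over all genes. With upper-quartile scaling or none, 35 were negative and Psmc2 changed sign. Single values ran from -0.56 (Psmb9) to 0.12 (Psmc3ip) over all 14 libraries. The genes above 0 there were Psmd2, Psmd11 and Psmd12, subunits of the 19S particle, and the non-subunits Psmc3ip and Psme3ip1.

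In edgeR, calls appeared in both fits that took the library class into account, all of them lower with DC371739. With the class term 5 of 41 passed (12.2%): Psma4, Psmc5, Psmd4, Psmd7 and Psmd9. The background of that fit was 6.7% lower and 5.62% higher. Over the 11 shallower libraries 9 of 41 passed (22%): those 5 and Psma7, Psmb6, Psmd5 and Psmg3. The background was 10.5% lower and 11% higher, and none of the 41 was higher. Some markers of other liver cell types were higher in the same fits. Of 9 stellate and fibroblast markers, 8 had a positive log2 fold change over all 14 libraries, and all 9 did in the other two fits, with medians of 0.48 and 0.51 and 1 call higher in each. They summed to 216 to 345 CPM in control and 284 to 473 CPM with DC371739. Of 9 endothelial markers, 6 had a positive log2 fold change in each of the 3 fits. The other 3, Stab1, Stab2 and Clec4g, were negative in each. Calls higher numbered 2 with the class term and 3 in the shallower set. The endothelial sums were 195 to 304 CPM in control and 245 to 335 CPM with DC371739. All 3 neutrophil markers were positive in the 3 fits, with 1 call, Csf3r, both with the class term and in the shallower set. Over all 14 libraries 0 of the stellate, endothelial and neutrophil markers passed (edgeR), with 4, 3 and 1 at an unadjusted p under 0.05. Of all genes tested, 20.4% had an unadjusted p under 0.05 in that fit. The 5 cholangiocyte markers passed in none of the 3 fits. The part of these cells in the proteasome values was not tested.

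The calls rested on single libraries to different degrees. Leaving out each library of the shallower set in turn gave 5 to 12 called genes. The 4 genes Psmc5, Psmd7, Psmd9 and Psmg3 were called in all 11 of these fits and Psma7 in 10, while Psma4 was called in 5, Psmd4 in 4, Psmb6 in 3 and Psmd5 in 2. With the class term, the calls held in fewer fits: in 6 of 14 for Psmc5, 5 for Psmd7, 4 for Psmd9, and 2 for Psma4 and Psmd4. The count of 9 dropped to 5 without control replicate 2 or without DC371739 replicate 2, 3 or 6, and with either of control replicates 1 and 5 left out it stood at 6. The 5 calls of the fit with the class term dropped to 0 without any of control replicates 1, 3 and 5 and DC371739 replicates 2, 3, 5 and 6, to 1 without control replicate 2, to 2 without control replicate 6 and to 3 without DC371739 replicate 1, and rose to 7 without control replicate 7 and to 11 without DC371739 replicate 7.

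**Figure D2:**
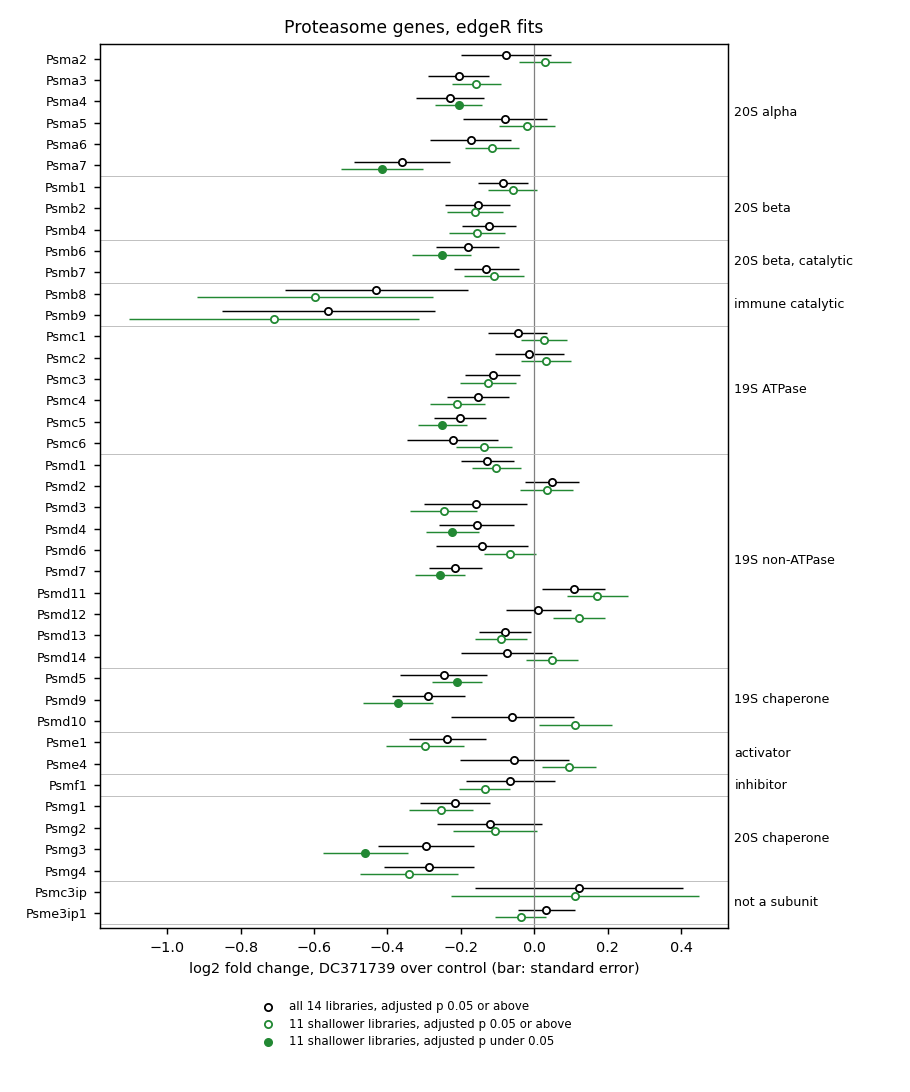
Log2 fold change of the 41 genes, DC371739 over control, with its standard error as the bar, over all 14 libraries (black) and over the 11 shallower libraries (green, filled where the adjusted p was under 0.05). Of the 41 points over all 14 libraries 36 lie below 0, and the 9 filled points all lie below 0.

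In the 19S particle, Psmd7, Psmc5 and Psmd4 fell in both fits that set the deeper libraries apart. Psmd7 (ENSMAUG00000012063) codes for a lid subunit that pairs with the deubiquitinase Psmd14. Its level was 113, 120 and 134 CPM (lowest, median and highest of 7) in control and 94.2, 106 and 116 CPM with DC371739. All 7 DC371739 libraries were below the control median, and the groups overlapped only through DC371739 replicate 7 at 116 CPM and control replicates 4 and 6 at 113 and 114 CPM. The log2 fold change was -0.22 (SE 0.07, adjusted p = 0.108 with edgeR) over all 14 libraries, -0.21 (adjusted p = 0.0395) with the class term and -0.26 (adjusted p = 0.0172), a difference of -16.3%, over the shallower ones.

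Psmc5 (ENSMAUG00000012661), an ATPase of the base, had 111, 129 and 133 CPM in control and 99.3, 110 and 122 CPM with DC371739. The groups overlapped, and again all 7 DC371739 libraries were below the control median. It differed by -0.20 on the log2 scale (SE 0.07, adjusted p = 0.126 with edgeR), by -0.21 (adjusted p = 0.0413) with the class term and by -0.25 (adjusted p = 0.0177) over the shallower libraries. The other 5 ATPase genes passed in none of the 3 fits. Their log2 fold changes over all 14 libraries ran from -0.22 (Psmc6) to -0.01 (Psmc2).

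Psmd4 (ENSMAUG00000019832), which binds ubiquitin chains, had 100, 134 and 150 CPM in control and 96.4, 113 and 132 CPM with DC371739. It was lower in the deeper libraries of both groups, at 96.4 to 104 CPM against 107 to 150 CPM in the others. Its log2 fold change was -0.16 (adjusted p = 0.398 with edgeR) over all 14 libraries, -0.20 (adjusted p = 0.0482) with the class term and -0.22 (adjusted p = 0.0399) over the shallower ones. The remaining 8 non-ATPase genes passed in none of the 3 fits. Among them Psmd11 had the highest log2 fold change, 0.11 over all 14 libraries (adjusted p = 0.512) and 0.17 over the shallower ones (adjusted p = 0.152). Psmd3 stood at -0.16 (adjusted p = 0.557) and -0.25 (adjusted p = 0.066).

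Chaperones of the 19S base, which hold the ATPases while the ring is put together, were lower in 2 of 3 genes over the shallower libraries. Psmd9 (ENSMAUG00000011619) had 30.2, 38 and 43.2 CPM in control and 27.4, 29.3 and 36 CPM with DC371739. The groups overlapped through control replicates 4, 6 and 7 and DC371739 replicates 1 and 7. Its log2 fold change was -0.29 (SE 0.10, adjusted p = 0.119 with edgeR), -0.29 (adjusted p = 0.0469) with the class term and -0.37 (adjusted p = 0.0148) over the shallower libraries. Psmd5 (ENSMAUG00000008700) had 41.4, 47.1 and 62.6 CPM in control and 36.5, 40.1 and 58.8 CPM with DC371739, with the 3 highest values in the 3 deeper libraries. Over all 14 libraries its log2 fold change was -0.25 (adjusted p = 0.248 with edgeR), with the class term -0.18 (adjusted p = 0.0529), and in the shallower set -0.21 (adjusted p = 0.0385). The third, Psmd10 (gankyrin), had log2 fold changes of -0.06 over all libraries and 0.11 over the shallower ones, and passed in neither.

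In the alpha ring of the core, Psma7 and Psma4 fell over the shallower libraries. Psma7 (ENSMAUG00000011223) had 66.6, 86.8 and 101 CPM in control and 50.7, 64.6 and 95.2 CPM with DC371739. DC371739 replicate 7, one of the deeper libraries, was at 95.2 CPM, and the other 6 were at 73.1 CPM or lower. The log2 fold change was -0.36 (SE 0.13, adjusted p = 0.137 with edgeR) over all 14 libraries, -0.33 (adjusted p = 0.0519) with the class term and -0.41 (adjusted p = 0.018), a difference of -25%, over the shallower ones.

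Psma4 (ENSMAUG00000011209) had 115, 127 and 153 CPM in control and 97.6, 107 and 140 CPM with DC371739. The 3 deeper libraries held its 3 highest values, and among the shallower libraries the groups did not overlap, with 115 to 127 CPM against 97.6 to 114 CPM. Psma4 and Psmd7 were the 2 genes of 41 (4.88%) without overlap there, against a background of 5.29% of all genes. Over all 14 libraries 0 of 41 were below control without overlap, against 0.403% of all genes. The log2 fold change of Psma4 was -0.23 (adjusted p = 0.178 with edgeR), -0.18 (adjusted p = 0.0448) with the class term and -0.21 (adjusted p = 0.0339) over the shallower libraries. The other 4 alpha-ring genes, Psma2, Psma3, Psma5 and Psma6, passed in none of the 3 fits, with log2 fold changes of -0.21 to -0.08 over all 14 libraries.

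Of the constitutive catalytic genes, Psmb6 (ENSMAUG00000020184) had 97.6, 109 and 127 CPM in control and 82.3, 93.9 and 114 CPM with DC371739. The groups overlapped, with 6 of 7 DC371739 libraries below the control median. Psmb6 differed by -0.18 on the log2 scale (SE 0.09, adjusted p = 0.245 with edgeR), by -0.18 (adjusted p = 0.136) with the class term and by -0.25 (adjusted p = 0.0358) over the shallower libraries. Psmb7 (ENSMAUG00000009541) had 121, 134 and 150 CPM in control and 107, 124 and 145 CPM with DC371739, and a log2 fold change of -0.13 (adjusted p = 0.42). The non-catalytic Psmb2 had 87.2, 97.9 and 104 CPM against 71.1, 83.1 and 106 CPM (-0.15, adjusted p = 0.337), and Psmb4 241, 263 and 290 CPM against 211, 241 and 266 CPM (-0.12, adjusted p = 0.354). Psmb7, Psmb2 and Psmb4 overlapped between the groups and passed in none of the 3 fits. Over the shallower libraries their log2 fold changes were -0.11, -0.16 and -0.16, with adjusted p-values of 0.356, 0.137 and 0.15 (edgeR).

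Chaperones of the 20S core, which guide the alpha ring, had 1 call in 4, that of Psmg3 (ENSMAUG00000004055). It had 7.71, 10.6 and 11.7 CPM in control and 6.58, 8.01 and 9.86 CPM with DC371739. The 2 lowest control values, 7.71 and 8.11 CPM, were those of the deeper control replicates 6 and 7. The log2 fold change was -0.30 (SE 0.13, adjusted p = 0.214 with edgeR) over all 14 libraries, -0.30 (adjusted p = 0.111) with the class term and -0.46 (adjusted p = 0.0132), a difference of -27.3%, over the shallower ones. Psmg1, Psmg2 and Psmg4 had log2 fold changes of -0.22, -0.12 and -0.29 over all 14 libraries and passed in none of the 3 fits.

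Psme1 (ENSMAUG00000015111), of the PA28 activator, had 112, 136 and 166 CPM in control and 97.6, 117 and 135 CPM with DC371739. The groups overlapped, and the log2 fold change of -0.24 (SE 0.10, adjusted p = 0.213 with edgeR) did not pass, nor did -0.30 (adjusted p = 0.057) over the shallower libraries. Psme4 had 124, 136 and 222 CPM in control and 130, 145 and 206 CPM with DC371739. Its log2 fold change was -0.05 (adjusted p = 0.875) and changed sign, to 0.06 with the class term and to 0.09 in the shallower set. Psmf1 had 68, 96.5 and 117 CPM against 67.1, 90.9 and 98.2 CPM (-0.07, adjusted p = 0.805).

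**Figure D3:**
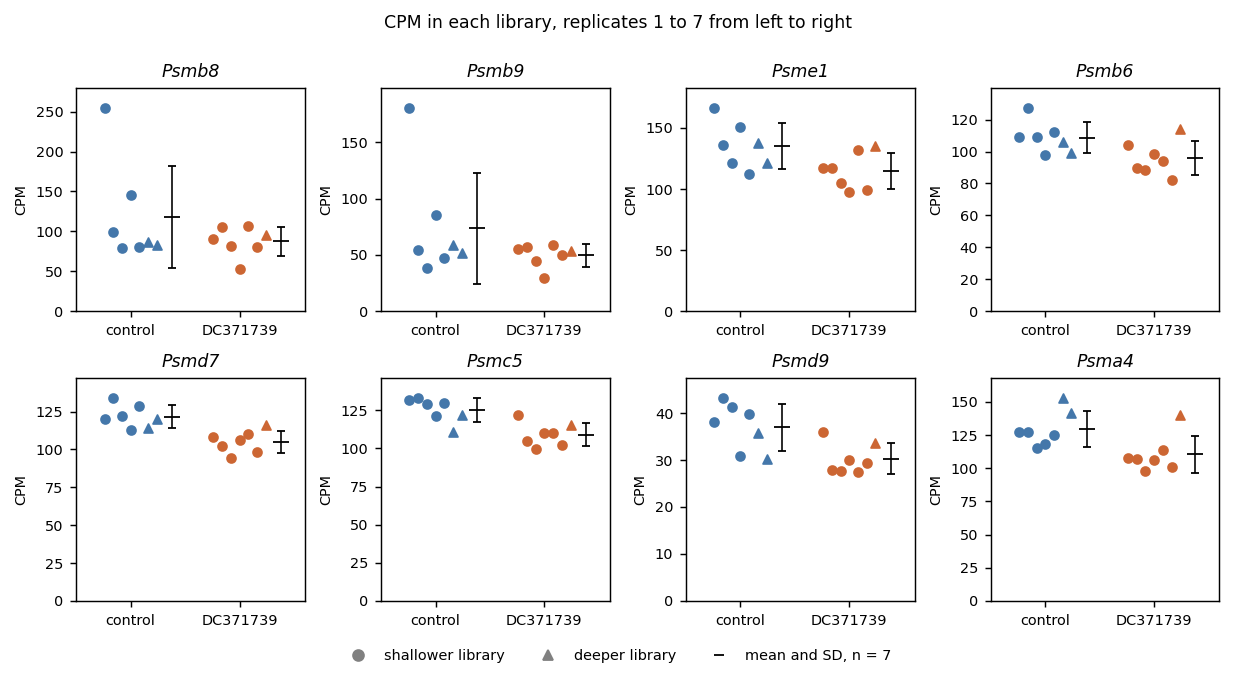
CPM of 8 genes in each of the 7 control and 7 DC371739 libraries, with triangles for the 3 deeper libraries and bars for the mean and SD (n = 7). For Psmb8 and Psmb9 control replicate 1 stands alone at 254 and 180 CPM, and for Psma4 the deeper libraries lie highest in each group.

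The immune catalytic genes had 1 library far above all others, control replicate 1. Psmb8 (ENSMAUG00000003396) had 254, 98.7, 79.2, 145, 80.8, 86.8 and 83.4 CPM in control replicates 1 to 7, and 90.9, 105, 82.3, 53.2, 107, 79.9 and 95.4 CPM in DC371739 replicates 1 to 7. Psmb9 (ENSMAUG00000007584) had 180, 54.5, 38.4, 85.7, 47.1, 58.4 and 51.5 CPM in control and 55.3, 57.2, 44.9, 29.5, 59, 50 and 53.3 CPM with DC371739. For both genes control replicate 1 was highest, control replicate 4 came next and DC371739 replicate 4 was lowest, and the remaining libraries of the groups overlapped.

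Neither gene differed between the groups beyond that spread. Psmb8 was at 118 ± 64.1 CPM in control and 87.7 ± 18.4 CPM with DC371739 (SD, n = 7 each), and its fitted log2 difference was -0.43 (SE 0.25, adjusted p = 0.34 with edgeR). Psmb9 was at 73.6 ± 49 and 49.9 ± 10.1 CPM (SD, n = 7 each), with a fitted log2 difference of -0.56 (SE 0.29, adjusted p = 0.285 with edgeR). Without control replicate 1 these became -0.12 (SE 0.17, adjusted p = 0.73) for Psmb8 and -0.17 (SE 0.18, adjusted p = 0.652) for Psmb9. Most of the size of both values came with that library.

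Control replicate 1 was high for the immune genes and not for the constitutive ones. It stood 2.93-fold over the median of the other 13 libraries for Psmb8 and 3.37-fold for Psmb9, but 0.993-fold for Psmb7, 1.11-fold for Psmb6 and 1.08-fold for Psmb4. Psme1 was 1.37-fold over that median. Of the 41 genes 4 (9.76%) were highest in control replicate 1, namely Psmb8, Psmb9, Psme1 and Psmf1, against 3.79% of all genes tested. Genes of the interferon response were high in the same library: their sum over 19 genes was 1490 CPM, against 640 to 858 CPM in the other controls and 610 to 942 CPM with DC371739, and 9 of the 19 were highest there. The guanylate-binding protein gene Gbp5 was 5.25-fold over the median of the other 13 libraries there. Between the groups 0 of the 19 passed over all 14 libraries (edgeR), and 1 fell over the shallower ones, Irf2 (adjusted p = 0.0439), which 7 of the 11 omissions of a single library brought to an adjusted p of 0.05 or more, up to 0.0902. Over the shallower libraries 10.5% of all genes were lower.

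By their sums, markers of immune cells shared the highest controls and the lowest DC371739 library with Psmb8 and Psmb9. Control replicates 1 and 4 had macrophage sums (14 markers) of 1020 and 1080 CPM, and the remaining controls 721 to 895 CPM. The 12 lymphocyte and NK markers summed to 25.9 and 26 CPM in these libraries, against 14.8 to 24.9 CPM, and the 3 neutrophil markers to 9.93 and 9.41 CPM, against 5.84 to 7.01 CPM. Control replicates 1 and 4 were thus the 2 highest controls by the sums of all 3 lists, as for Psmb8 and Psmb9. Single markers did not all follow the sums. Control replicate 1 was the highest of the 14 libraries for 1 of 14 macrophage, 2 of 12 lymphocyte and NK and 0 of 3 neutrophil markers. There Marco was at 369 CPM, against a median of 278 CPM in the other controls, but Clec4f was at 75.5 CPM, against 86.4 CPM. DC371739 replicate 4, the lowest library for both genes, was the lowest of the DC371739 libraries by the sums of all 3 lists, at 807, 18.3 and 8.74 CPM. This was not particular to immune cells. The stellate and cholangiocyte sums were also lowest among the DC371739 libraries there, at 284 and 19.6 CPM, though the endothelial sum was not. Control replicate 1 was also the highest control for the endothelial sum, at 304 CPM. The other libraries did not keep the order of Psmb8 throughout. In DC371739 replicates 6 and 7 the neutrophil sums were 14 and 9.07 CPM, and Psmb8 was at 79.9 and 95.4 CPM. With DC371739 the macrophage markers summed to 807 to 1270 CPM. Over all 14 libraries 10 of the 14 had a positive log2 fold change and 4, Cd163, C1qa, C1qb and C1qc, a negative one. Calls higher numbered 3 there (Laptm5, Ctss and Mpeg1, the last called in 8 of 14 fits with a library left out). There were 7 with the class term and 6 in the shallower set, while Psmb8 and Psmb9 were not higher. The share of all genes called higher was 1.24%, 5.62% and 11% in these fits. The lymphocyte and NK markers summed to 18.3 to 37.2 CPM with DC371739. Over all 14 libraries 0 of these 12 passed (edgeR), and 3 (25%) had an unadjusted p under 0.05, against 20.4% of all genes tested. In each of the other fits 2 of the 12, Ptprc and Prf1, rose. Ptprc is expressed by leukocytes in general and is not particular to lymphocytes or NK cells. Its mean was 7.83 CPM in control and 11.7 CPM with DC371739, a large part of the sum. None of the 3 lists had a marker at 0. In whole liver, fewer cells of a type and less RNA per cell cannot be told apart, and the part of these cells in the Psmb8 and Psmb9 values was not tested.

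**Figure D4:**
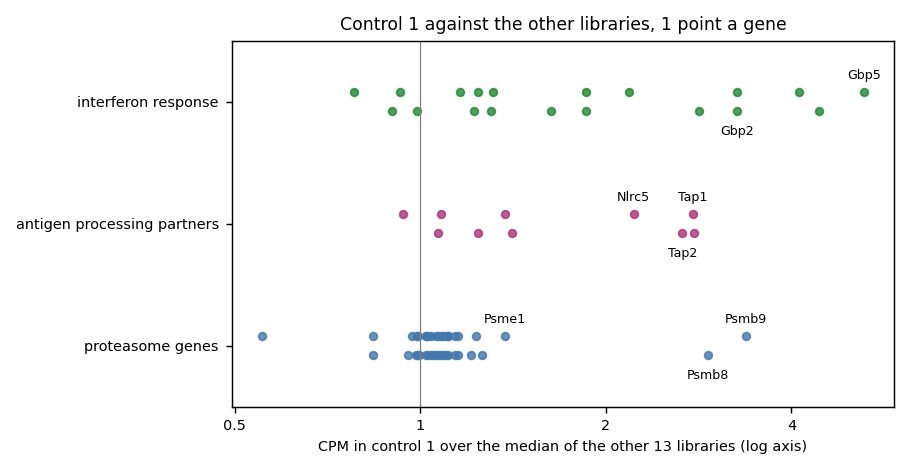
CPM in control replicate 1 over the median of the other 13 libraries (log axis), 1 point per gene, for the 41 proteasome genes, 10 antigen-processing partners and 19 interferon-response genes. Of the proteasome genes 2, Psmb8 at 2.93 and Psmb9 at 3.37, lie at 2-fold or more, beside 4 of the 10 partners and 7 of the 19 interferon-response genes.

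Psmb8 and Psmb9 lie together with the peptide transporter genes Tap1 and Tap2. In the coordinates of the count table, whose genome build the sources used here do not name, Tap2 spans KB708367.1:966606-980496, Psmb8 982421 to 996158, Tap1 991432 to 1011585 (all on the minus strand) and Psmb9 1011782 to 1017031 on the plus strand of the same scaffold. Between the spans of Tap1 and Psmb9 lie 196 bases, and by their strands both genes begin on the facing sides and run apart. The spans of Psmb8 and Tap1 overlap. In control replicate 1 Tap1 was 2.77-fold and Tap2 2.66-fold over the median of the other libraries, close to the values of Psmb8 and Psmb9. Of the 10 antigen-processing partners, 4 were highest in control replicate 1, and none passed the test between the groups in any of the 3 fits (edgeR). The partners of smallest p were Ciita (log2 fold change 0.81, adjusted p = 0.273) and Cd74 (0.37, adjusted p = 0.309), both of the MHC class II pathway. Psme1, the other member named for interferon, lies on another scaffold, KB708321.1:2250673-2253480.

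Ratios within a library, which do not depend on how libraries are scaled, were used to compare immune and constitutive catalytic transcripts. The log2 ratio per length of Psmb9 to Psmb6, the subunit it replaces, was -0.98 ± 0.77 in control and -1.20 ± 0.38 with DC371739 (SD, n = 7 each). The difference of -0.21 did not pass a two-sided exact permutation test (p = 0.559, 0.559 after adjustment over the 3 ratios tested). The ratio was highest in control replicates 1 and 4, at 0.48 and -0.42, and lowest in DC371739 replicate 4, at -1.97. Only in control replicate 1 did Psmb9 exceed Psmb6.

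Set against Psmb4, a subunit of both kinds of core, Psmb8 had a log2 ratio of -1.72 ± 0.64 in control and -1.93 ± 0.33 with DC371739 (SD, n = 7 each; exact permutation p = 0.503). For Psmb9 to Psmb4 these were -1.88 ± 0.76 and -2.15 ± 0.33 (SD, n = 7 each; exact permutation p = 0.458). The smallest p this design allows is 0.000583. Without control replicate 1 the 3 differences were 0.03, 0.0007 and -0.03.

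The deeper libraries stood apart from the rest in many of the 41 genes. In 14 of them (34.1%) the 3 deeper libraries were above all 11 shallower ones, against a background of 13.8% of all genes, and in 3 (7.32%) they were below all 11, against 14.2%. Those above were Psma2, Psma4, Psma5 and Psma6 of the alpha ring, Psmb2, the ATPases Psmc1, Psmc2 and Psmc6, Psmd6 and Psmd14 of the lid, and Psmd5, Psmd10, Psme4 and Psmg2. The ratio of the medians, deeper over shallower, was 1.53 for Psmd10, 1.52 for Psme4 and 1.51 for Psmc6. Those below were Psmd3 (0.654), Psmd4 (0.782) and Psmf1 (0.715). With only 1 treated library among the 3, no treatment value can be given within that class.

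Among the libraries themselves, the mean log2 CPM of the 41 genes was 6.03 to 6.19 in control and 5.90 to 6.18 with DC371739. DC371739 replicate 7, a deeper library, had the 6.18, and the other 6 DC371739 libraries had 5.90 to 6.09. DC371739 replicate 3 was the lowest of the 14 libraries for 13 genes and DC371739 replicate 6 for 7. Control replicate 6 was the highest for 12 genes and control replicate 2 for 11.

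**Figure D5:**
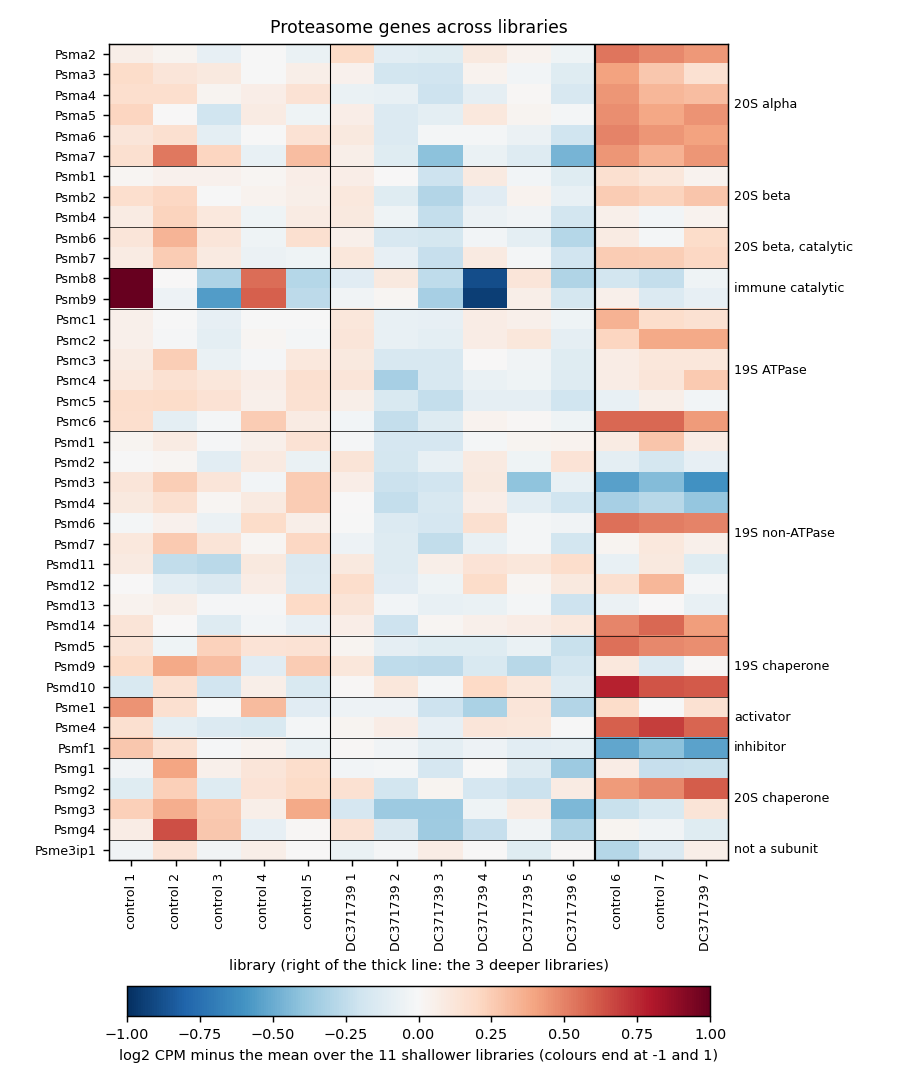
Log2 CPM of 40 of the 41 genes in each library minus the mean over the 11 shallower libraries, with the 3 deeper libraries at the right of the thick line; Psmc3ip, at about 1 CPM, is not drawn. The 2 rows of Psmb8 and Psmb9 stand out in control replicate 1 (high) and DC371739 replicate 4 (low), and the deeper libraries differ from the rest in many rows.

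The genes around the proteasome were described from lists of the same pathway. Of 10 assembly and accessory factors, 9 (90%) had a negative log2 fold change over all 14 libraries, against 53.4% of all genes tested. Their median was -0.18, and 0 passed in edgeR. With the class term 1 fell, and over the shallower libraries 4 fell and none rose. The matching shares of all genes called lower were 6.7% and 10.5%. Sem1, a small subunit of the 19S lid, was at 60.3 ± 9.85 CPM in control and 46.6 ± 4.94 CPM with DC371739 (SD, n = 7 each). Its log2 fold change was -0.37 (SE 0.11, adjusted p = 0.0708 with edgeR) over all 14 libraries, and it passed over the shallower ones (adjusted p = 0.0188, and 0.0554 without control replicate 2). Pomp, which matures the 20S core, was at 131 ± 18 and 109 ± 9.06 CPM, and passed over the shallower libraries (log2 fold change -0.34, adjusted p = 0.0197, and 0.0549 without control replicate 2). Akirin2, which brings proteasomes into the nucleus (-0.33, adjusted p = 0.0256), and Fbxo7, a partner of Psmf1 (-0.19, adjusted p = 0.0456), passed there as well. With a library left out, Akirin2 was called in 8 of 11 fits and Fbxo7 in 3.

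Of 9 genes that control proteasome expression, 0 passed over all 14 libraries (edgeR), 1 rose with the class term and 2 rose over the shallower ones. Calls higher made up 1.24%, 5.62% and 11% of all genes in these fits, respectively. Nfe2l1 codes for the transcription factor NRF1, which raises proteasome genes when the protease is inhibited. It was at 246 ± 20.4 CPM in control and 279 ± 26.2 CPM with DC371739 (SD, n = 7 each), with a log2 fold change of 0.18 (adjusted p = 0.217 with edgeR), and 0.25 (adjusted p = 0.0252) over the shallower libraries, where it was called in 7 of 11 fits with a library left out. Bach1, a repressor that competes at antioxidant response elements, was at 33.3 ± 10.1 and 43.6 ± 6.39 CPM. Its log2 fold change was 0.39 (adjusted p = 0.193 with edgeR), 0.50 (adjusted p = 0.0146) with the class term and 0.60 (adjusted p = 0.00339) over the shallower libraries, and each omission of a library kept both calls. The other 7 genes, among them Nfe2l2 and its inhibitor Keap1, passed in none of the 3 fits.

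Of 10 ubiquitin genes and shuttle factors, which bring tagged proteins to the proteasome, 0 passed over all 14 libraries. Over the shallower ones 1 of the 10 rose, a share near the 11% of all genes called higher there. That gene was Uba1, the main ubiquitin-activating enzyme (log2 fold change 0.26, adjusted p = 0.0336), which was called in 5 of 11 fits with a library left out. Vcp, the unfoldase that hands substrates over, was at 553 ± 25.6 and 562 ± 35.3 CPM (SD, n = 7 each; log2 fold change 0.02, adjusted p = 0.894 with edgeR), and was named here after its values were seen.

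A list of 7 genes of the protein stress response gave the only calls over all 14 libraries among the pathway lists around the proteasome, with 2 lower and all 7 negative. Of all genes, 0.608% were called lower in that fit and 53.4% were negative. The list holds the chaperone genes Hsph1, Hspa8, Dnajb1 and Hspb1, the co-chaperone Bag3, the transcription factor gene Hsf1 and the autophagy receptor gene Sqstm1, and not all of them are induced by stress. Hsph1, a co-chaperone of the HSP110 family, fell from 29.9 ± 5.47 to 19.1 ± 1.69 CPM (SD, n = 7 each), or by 0.65 on the log2 scale (SE 0.11, adjusted p = 0.0155 with edgeR), and was called with any 1 library left out. Hspa8, which codes for the constitutive HSC70, fell from 915 ± 141 to 618 ± 99.9 CPM (log2 fold change -0.57, SE 0.12, adjusted p = 0.0294), but was called in only 6 of the 14 fits with a library left out, with adjusted p-values of 0.00405 to 0.0768. Omitting any of control replicates 1, 3 and 5 or any of DC371739 replicates 1, 2, 3, 5 and 6 ended the call. With the class term, and in the shallower set, Hspa8 passed in every such fit. Bag3 (adjusted p = 0.0246, lost without control replicate 3 or 5) and Hsf1 (adjusted p = 0.0113) also fell over the shallower libraries.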

How the data were processed

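Liver RNA of 7 control and 7 DC371739 samples was sequenced. The submitters' processing notes name HISAT2 2.2.1, featureCounts 2.0.0 and edgeR; no source used here names the genome build or the strand setting. Per the file headers, the authors deposited whole-number counts per Ensembl gene and a table of FPKM values for genes with a symbol; each FPKM equalled the count per length times 1 constant per library within 1.3e-07. The authors' own log2 fold changes and p-values, deposited in the same table, were not used.

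Counts were tested with edgeR 4.0.16 (R 4.3.3; quasi-likelihood F-test, robust, TMM scaling, minimum count of 10) across 12166 genes, with Benjamini-Hochberg adjustment and a threshold of 0.05. A fit of the 11 shallower libraries tested 12249 genes. Standard errors come from the fold change and its F statistic. Log2 CPM used a prior count of 2, and ratios a pseudocount of 0.5 counts. Ratios were tested with scipy 1.17.1. Alternatives used DESeq2 1.42.0 and limma 3.58.1 (log2 of FPKM + 1 or + 0.1). The test was checked on simulated data. Over 42 pairs of libraries within a group, chi-square per degree of freedom was at least 11.2, so no library was counted as a repeat of another.

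Members and lists were chosen with earlier results of these data known. Values were given for the catalytic genes and their counterparts, Psme1, members called in any of 3 fits, and otherwise the members of smallest p in a role of at least 4. From a list, called genes were named, at most 4, or else the 2 of smallest p. Exons of Psmc3, Psmc3ip and Psme1 share 64, 38 and 10 bases with those of a neighbouring gene, and reads there cannot be told apart.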

Additional observations from a re-analysis of the deposited data

Results flagged for a closer look

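Of 88 groups of 7 libraries examined, 14 held a highest or lowest library far from the others, which chance gives in about 1 in 20 groups. In DC371739 replicate 7, a deeper library, Psma4 (140 CPM), Psma5 (88.8 CPM), Psmc6 (110 CPM), Psmd5 (58.8 CPM), Psmd10 (15.2 CPM), Psme4 (206 CPM) and Psmg2 (12.2 CPM) stood far above the other 6 DC371739 libraries, and Psmf1 (67.1 CPM) far below them. The control group holds 2 deeper libraries, so that neither stands alone there. In control replicate 1, Psmb8 (254 CPM) and Psmb9 (180 CPM) stood far above the other controls. In control replicate 2, Psmg4, a chaperone of the 20S core, was far above the others at 20.2 CPM. In DC371739 replicate 4 all 3 ratios were far below those of the other DC371739 libraries, with log2 values of -1.97 for Psmb9 to Psmb6, -2.62 for Psmb8 to Psmb4 and -2.88 for Psmb9 to Psmb4.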

How the results depend on the processing

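The count of the 41 proteasome genes called, 0 over all 14 libraries, was 5 with a term for library class, 9 over the 11 shallower libraries, 6 over 10 libraries (those without control replicate 1, chosen after seeing the data) and 2 with DESeq2, and 0 to 4 with each library left out in turn (4 without DC371739 replicate 7). It stayed at 0 with RLE, upper-quartile or no scaling, with other filters on low values, and with limma. The count of 5 became 0 to 11 and the count of 9 became 5 to 12 with each library left out. All genes called, 225, were 1499 with that term, 2635 in the 11 shallower libraries, 2641 in the 10 and 842 with DESeq2, and 25 to 1069 with each library left out (for control, 106 without replicate 1, 73 without 2, 53 without 3, 63 without 5 and 542 without 7; for DC371739, 51 without 2, 25 without 3 or 6, 77 without 5 and 1069 without 7). A replicate block left 8 of all genes and 0 of the 41. The labels do not say whether same-numbered samples are paired. Deviations of same-numbered libraries correlated at -0.131 to 0.548, and only for number 7, deeper in both groups, was its own number the highest. Such correlations cannot decide whether the samples were paired.

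Differences in ratios changed sign over the 10 libraries for Psmb9 to Psmb6 (0.10) and Psmb9 to Psmb4 (0.001), and ran, with each library left out, from -0.34 to 0.030, from -0.28 to 0.0007 for Psmb8 to Psmb4, and from -0.40 to -0.03 for Psmb9 to Psmb4. The log2 fold change of Psme4 turned positive over the 10 libraries (0.15), the shallower ones (0.094) and with the class term (0.058), and ran from -0.15 to 0.051 with each library left out (0.031 and 0.051 without control replicates 6 and 7). Of 432 log2 fold changes of 16 named members over 27 alternatives, 402 kept direction and side of the threshold, 25 newly passed and those 5 of Psme4 changed sign. Settings that leave out libraries rest on fewer samples; for the others the cause was not tested. Ratios of Psmb8 to Psmb5 and Psmb10 to Psmb7 were planned and not run.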
